A study of Rattus norvegicus with 6 samples.

Results

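The mitochondrial ribosomal proteins were followed in RUCA-I cells, an epithelial line from a rat endometrial adenocarcinoma of the Lewis strain. They were defined as the genes with a tested expression value whose symbol starts with Mrps or Mrpl followed by a digit, with the longest locus taken for each symbol. This gave 69 genes of 11778 symbols with a tested value, 28 named for the small subunit (Mrps) and 41 for the large subunit (Mrpl). The compared groups were miR-203 knockout cells (miR-203 KO, 3 independently generated lines) and wild-type cells (WT, 3 batches), all untreated and grown to 90% confluence in 25 cm2 plastic flasks. Total RNA was sequenced from stranded dUTP libraries. No microRNA value was used, so the absence of miR-203 rests on the labels, and an effect of the lost microRNA cannot be told apart from other differences between the separately made KO lines and the WT batches.

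The deposited values were 1 FPKM (sequenced fragments for each kilobase of a transcript, adjusted for library size) per gene and group, pooled by the authors over the 3 samples. No SD, no value of a single sample and no sequencing depth stand behind a level here. The p and q that follow are the authors' Cuffdiff values, which set the difference between the groups against an estimated spread between samples. The samples were separate lines in miR-203 KO and batches in WT, so these spreads differ in kind. Log2 ratios, also those given beside a p, were computed here as log2((KO + 1)/(WT + 1)) unless stated otherwise. They are not the authors' fold. Epithelial markers were high in both groups. The 6 of 7 with a tested value lay between 79.2 and 419 FPKM in miR-203 KO and between 75.8 and 501 FPKM in WT. For 3 of these 6, none called at q under 0.05, the authors' deposited table gave an unadjusted p under 0.05, in different directions. The share with such a p was 6.00% among all tested rows and 9.20% among named symbols. Epcam had 419 FPKM in miR-203 KO and 501 FPKM in WT, with p = 0.0234 and q = 0.638 in the authors' deposited table. The keratin gene Krt8 had 241 FPKM in miR-203 KO and 204 FPKM in WT, with p = 0.0288 and q = 0.701 in the authors' deposited table. This is the longest of 3 rows listed for Krt8, a locus of 999 bases. Krt18, the partner keratin of Krt8, had 121 FPKM in miR-203 KO and 103 FPKM in WT, with p = 0.0379 and q = 0.779 in the authors' deposited table. The part of these 3 markers in the results below was not tested. Of the uterine markers, the oestrogen receptor gene Esr1 had 8.32 FPKM in miR-203 KO and 7.58 FPKM in WT, Pax8 had 71.5 and 75.4 FPKM in the same order, and Pgr, Hoxa10 and Hoxa11 had no tested row. Of the fibroblast markers, Col1a1 stood at 1.17 FPKM in miR-203 KO and 1.43 FPKM in WT and the other 3 had no tested row. The listed locus of Col1a1 covers only 553 bases, so this value may not stand for the whole gene. Among 5 leukocyte markers 1 had a tested row, Csf1r, at 0.2004 FPKM in miR-203 KO and 0.791 FPKM in WT. It was called lower in miR-203 KO by the authors' deposited table (p = 0.00015, q = 0.0187), at a level below 1 FPKM in both groups. None of 4 endothelial markers had one. In bulk RNA, fewer cells of a type and less RNA per cell cannot be told apart.

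Mitochondrial ribosomes translate the few proteins encoded by mitochondrial DNA, all of them subunits of the oxidative phosphorylation machinery. Their ribosomal RNAs come from mitochondrial DNA, whereas every one of their proteins is made from a nuclear gene, translated in the cytosol and imported. Some of these proteins descend from the bacterial ribosome and others were added during the evolution of mitochondria. Promoters of nuclear genes for mitochondrial proteins are known for binding sites of NRF1, of GABP (an ETS family factor) and of YY1. Of the 69 genes, 41 have bacterial homologues and 27 code for mitochondria-specific proteins. The remaining gene, Mrps36, keeps a ribosomal symbol but its product is now assigned to the alpha-ketoglutarate dehydrogenase complex. Mrps30 and Mrps18a carry small-subunit symbols although structures place their proteins in the large subunit.

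The microRNA deleted in the KO lines is shown first because its seed defines which transcripts it could pair with. The RefSeq entry for rat miR-203a-3p lies on the plus strand of GRCr8 at chr6:137020756-137020777. The labels do not name the arm or the deleted bases. Capitals mark the seed, bases 2 to 8.
rno-miR-203a-3p: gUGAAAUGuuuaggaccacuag

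Promoters are shown because they are what these genes could share as a set. RefSeq windows from 250 bases before to 50 bases after the annotated start (GRCr8) were found for 56 of the 69 genes, 58 windows in all. The NRF1 core GCGCATGCG, searched on both strands, was present in 5 of the 58 windows, or 8.62%, against 1.52% of all 33469 RefSeq windows. The 5 windows are given on the strand of the gene with 20 bases on either side of the match in capitals. Matches on opposite strands overlap in the stretch of 10 capitals, which therefore counts as 2 matches.
Mrpl17, chr1:169575688-169575774, minus strand: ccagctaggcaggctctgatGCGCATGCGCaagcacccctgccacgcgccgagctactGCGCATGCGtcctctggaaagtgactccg
Mrpl22, chr10:42845861-42845909, plus strand: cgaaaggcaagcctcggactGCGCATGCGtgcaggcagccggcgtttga
Mrpl32, chr17:55260569-55260618, plus strand: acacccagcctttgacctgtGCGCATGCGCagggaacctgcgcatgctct
Mrpl44, chr9:88554898-88554947, plus strand: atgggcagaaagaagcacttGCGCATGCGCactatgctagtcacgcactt
Mrps18b, chr20:2842966-2843015, plus strand: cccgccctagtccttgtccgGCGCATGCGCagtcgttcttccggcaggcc

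In Mrpl17 the matches began 55 to 17 bases before the annotated start. In Mrps18b the first began 20 bases before it, in Mrpl22 29 bases, in Mrpl32 62 bases and in Mrpl44 132 bases. The ETS core CCGGAAG was found in 17 of 58 windows (29.3%, against 8.75% of all windows), among them those of all 3 Mrps18 paralogs. These code for related proteins with a common bacterial ancestor that occupy different places on the ribosome. The capitals below mark the core, which reads CTTCCGG where it lies on the opposite strand.
Mrps18a, chr9:22367392-22367438, minus strand: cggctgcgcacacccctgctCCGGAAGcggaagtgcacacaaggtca
Mrps18b, chr20:2842983-2843029, plus strand: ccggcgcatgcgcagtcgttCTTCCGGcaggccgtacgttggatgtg
Mrps18c, chr14:9123019-9123065, minus strand: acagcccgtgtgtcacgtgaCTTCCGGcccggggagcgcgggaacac

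The YY1 core AAGATGGCG was present in 8 windows of the mitochondrial ribosomal protein genes (13.8%, against 1.73% of all windows). With 1 base of the NRF1 core left free (GCGCNTGCG), 11 windows matched (19.0%, against 5.75%). At least 1 of these 3 motifs, with the NRF1 base free, occurred in 30 of 58 windows (51.7%, against 14.6%). The same share was 45.8% for small-subunit and 55.9% for large-subunit genes. A closer comparison is with named genes at a mean of at least 1 FPKM, whose 8656 windows had a share of 31.9%. Nuclear genes for oxidative phosphorylation subunits had 53.8% and cytosolic ribosomal protein genes 42.9%. Taken singly, windows of the expressed named genes had the exact NRF1 core in 3.5% and the form with 1 free base in 14%. They had the ETS core in 18.5% and the YY1 core in 4.05%. For NRF1 with 1 free base, ETS and YY1, oxidative phosphorylation genes had 21.2%, 26.9% and 13.5%. Cytosolic ribosomal protein genes had 7.14%, 28.6% and 7.14% in the same order. The CCAAT motif was about as frequent in the mitochondrial ribosomal protein windows (41.4%) as in all windows (37.5%) and in those of expressed named genes (38.1%). TATAAA occurred in 13.8% of the mitochondrial ribosomal protein windows, against 14.2% of all windows and 6.12% of those of expressed named genes. The median GC content of the mitochondrial ribosomal protein windows was 55.7%, below the 61.0% of the expressed named genes and above the 51.7% of all windows. The shares are descriptions of letters in these windows, with no test.

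**Figure D1:**
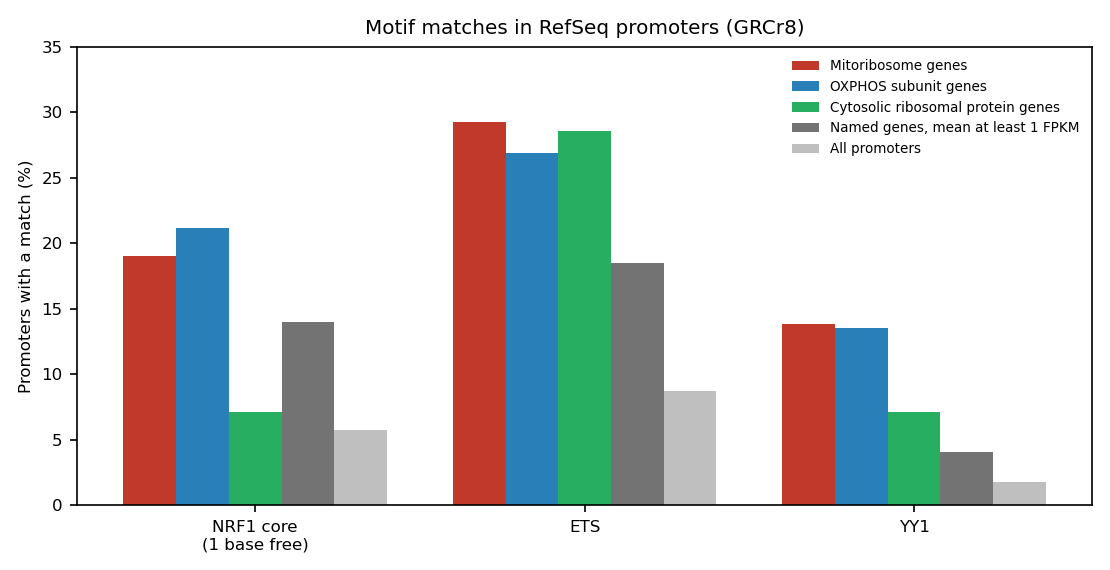
Share of RefSeq promoter windows (GRCr8, percent on the vertical axis) with at least 1 match to the NRF1 core with 1 free base, the ETS core or the YY1 core on either strand. Bars stand, left to right, for mitochondrial ribosomal protein genes (19.0%, 29.3% and 13.8% for the 3 motifs), oxidative phosphorylation subunits, cytosolic ribosomal proteins, expressed named genes (14%, 18.5% and 4.05%) and all windows (5.75%, 8.75% and 1.73%).

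Nearly all of these genes were clearly expressed, and their order of levels was almost the same in both groups. The median level was 31.0 FPKM in miR-203 KO and 31.0 FPKM in WT over the 68 genes with a mean of at least 1 FPKM, against 14.8 and 15.0 FPKM in the same groups for all named genes. Of the 69, 61 had a mean of at least 10 FPKM, and 54 lay between 10 and 60 FPKM. Across the 69 genes the log2 levels in miR-203 KO and WT had a Pearson r of 0.996 and the levels a Spearman rho of 0.988. These are correlations across genes of the same pooled libraries and carry no p. The median gene kept its rank to within 1 place, and the largest move was 10 places, by Mrpl39 and Mrpl17. For scale, the median was 54.0 FPKM in miR-203 KO and 57.9 FPKM in WT for 53 cytosolic ribosomal proteins, and 73.1 and 68.0 FPKM for 70 nuclear subunits of oxidative phosphorylation.

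The subunits had similar levels. Genes of the small subunit had a median of 27.7 FPKM in miR-203 KO and 27.2 FPKM in WT. Those of the large subunit had 32.4 FPKM in miR-203 KO and 33.7 FPKM in WT. Summed levels were 1075 FPKM in miR-203 KO and 1077 FPKM in WT for the small subunit, and 1459 and 1474 FPKM for the large subunit. Genes with bacterial homologues stood higher in the median (37.2 FPKM in miR-203 KO, 36.3 FPKM in WT) than the mitochondria-specific ones (23.7 FPKM in miR-203 KO, 22.6 FPKM in WT). Between the highest and the lowest of the 68 genes the levels spread 125-fold in miR-203 KO and 108-fold in WT.

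The 4 genes over 100 FPKM were Mrps12, Mrpl33, Mrpl35 and Mrps23. Mrps12, whose bacterial homologue lines the decoding centre, was highest with 258 FPKM in miR-203 KO and 234 FPKM in WT. Mrpl33 had 183 FPKM in miR-203 KO and 168 FPKM in WT. Mrpl35 had 108 FPKM in miR-203 KO and 117 FPKM in WT. Mrpl33 and Mrpl35 both have bacterial homologues in the large subunit, and neither their order nor that of Mrps12 differed between the groups. Mrps23, a mitochondria-specific protein of the small subunit, had 103 FPKM in miR-203 KO and 116 FPKM in WT. Next came Mrpl28 with 78.1 FPKM in miR-203 KO and 84.8 FPKM in WT. Mrpl45, which lies at the tunnel exit and ties the ribosome to the inner membrane, had 79.0 FPKM in miR-203 KO and 71.2 FPKM in WT. Mrpl3, a core protein of bacterial descent, had 60.9 FPKM in miR-203 KO and 63.7 FPKM in WT.

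At the low end stood mainly large-subunit genes. Mrpl40, a protein of the central protuberance, had 2.07 FPKM in miR-203 KO and 2.16 FPKM in WT. Mrpl19 had 4.87 FPKM in miR-203 KO and 5.05 FPKM in WT, and Mrpl47, whose bacterial homologue sits at the tunnel exit, had 4.87 and 5.51 FPKM. Mrpl49, Mrps25, Mrpl34 and Mrpl43 lay between 5.32 and 7.24 FPKM in miR-203 KO and between 5.50 and 7.78 FPKM in WT. Mrpl1 was lowest, with 0.735 FPKM in miR-203 KO and 0.474 FPKM in WT. Its listed locus covers 818 bases, a length equal to 1.38% of the RefSeq gene on GRCr8, so this value describes a fragment of the gene. The locus of Mrpl40 equals 34.8% of its RefSeq gene length. All other 67 loci were at least 50% as long as the gene, and some were far longer. The locus equals 1793% of the RefSeq gene length for Mrpl13, 1168% for Mrps7, 1055% for Mrpl19 and 779% for Mrpl51. It equals 613% for Mrpl33, 597% for Mrps25, 588% for Mrpl43 and 534% for Mrps12.

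**Figure D2:**
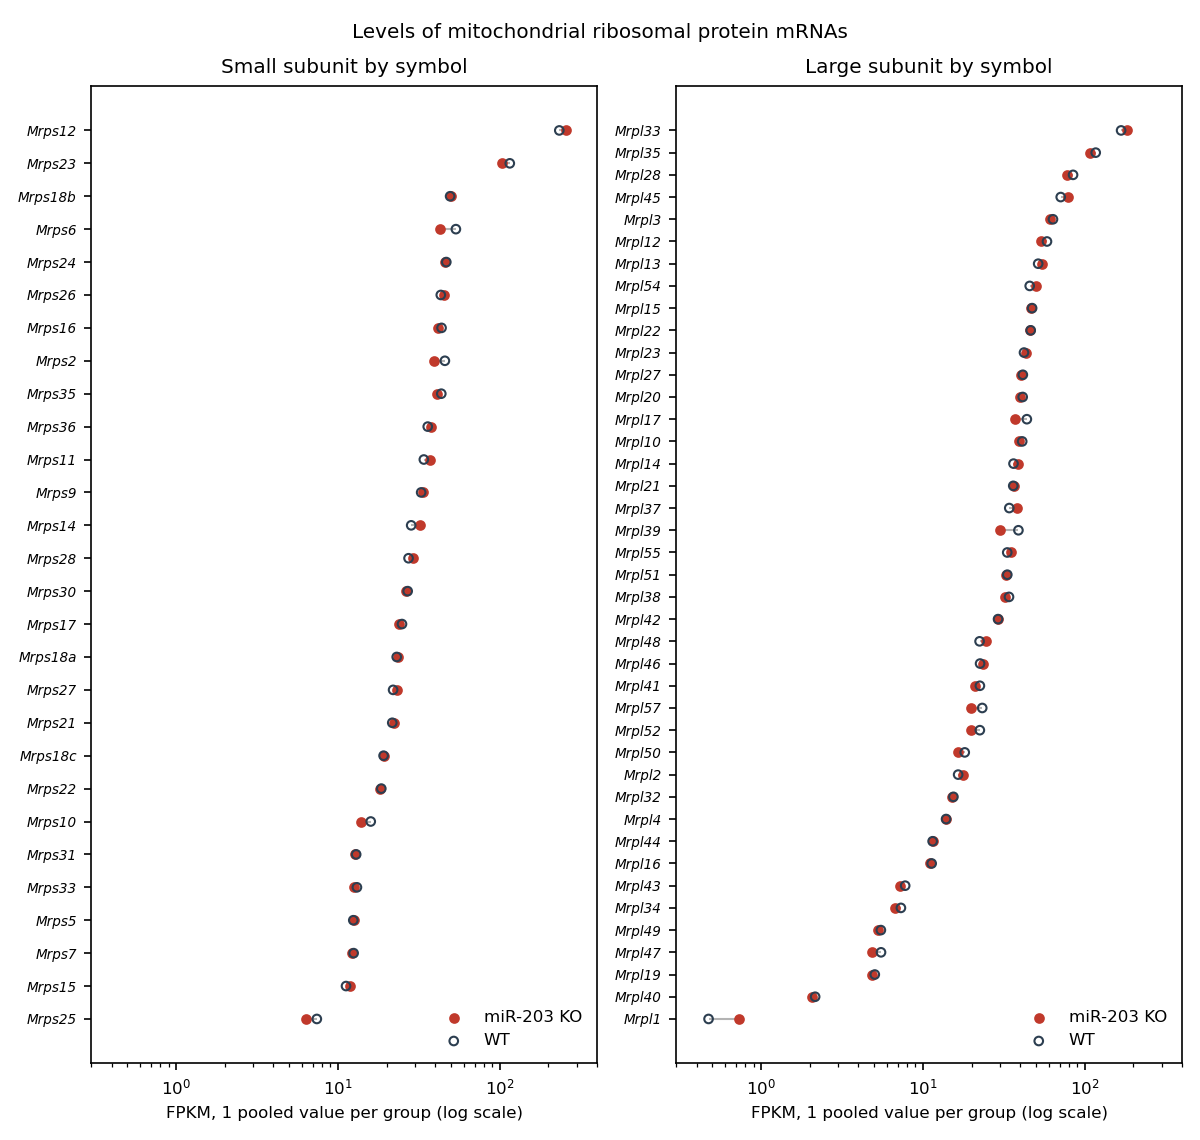
FPKM of each mitochondrial ribosomal protein gene on a log axis, small subunit left and large subunit right, sorted by mean level. Filled points are the pooled miR-203 KO value and open points the pooled WT value. The pairs nearly coincide for most genes, and Mrps6 and Mrpl39 show visible gaps to the left, as Mrpl1 does to the right below 1 FPKM.

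Loss of miR-203 was accompanied by no called change in any of the 69 genes. The question put to each gene was whether its mRNA level differs once miR-203 is gone. At q under 0.05, the authors' deposited table called 0 of the 69, against 1.05% of the 26459 tested rows (0.491% higher and 0.556% lower in miR-203 KO). Of the 11778 named symbols it called 100 higher and 127 lower. With shares this small, 0 of 69 does not set these genes apart. At an unadjusted p under 0.05 it held 3 of the 69 (4.35%), all lower in miR-203 KO, against 6.00% of all tested rows in either direction, 2.75% lower and 3.25% higher. The share among the 11778 named symbols was 9.20%, with 540 of them lower and 544 higher in miR-203 KO. With both directions pooled the share of the 69 was below that of all rows and of named symbols. In the lower direction, on a count of 3, it was above that of all rows but not above that of named symbols. The smallest q of the 69 in the authors' deposited table was 0.740.

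Differences were small in size. The absolute log2 ratio was under 0.1 in 45 genes, between 0.1 and 0.2 in 18 and above 0.2 in 6, with a maximum of 0.37. Among 13994 tested rows in the members' range of levels, 2.12 to 246 FPKM, the smallest absolute log2 ratio that the authors' deposited table called was 0.37 over 200 called rows. No smaller difference was called at these levels, so the absence of calls among the 69 genes does not show that their levels were equal.

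The median log2 ratio of the 68 genes with a mean of at least 1 FPKM was -0.03, with quartiles of -0.09 and 0.07. Over all tested rows at that level it was 0.00, with quartiles of -0.11 and 0.13. Of the 68 genes 29 were higher and 39 lower in miR-203 KO, that is 42.6% higher against 51.1% of all rows. The small subunit had a median log2 ratio of -0.01, with 14 genes higher and 14 lower. The large subunit had a median of -0.03, with 15 higher and 25 lower. The medians differed by 0.02 on the log2 scale, small minus large, far less than the distance between the quartiles. By descent, 18 genes with bacterial homologues were higher and 22 lower, and 10 mitochondria-specific genes were higher and 17 lower.

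**Figure D3:**
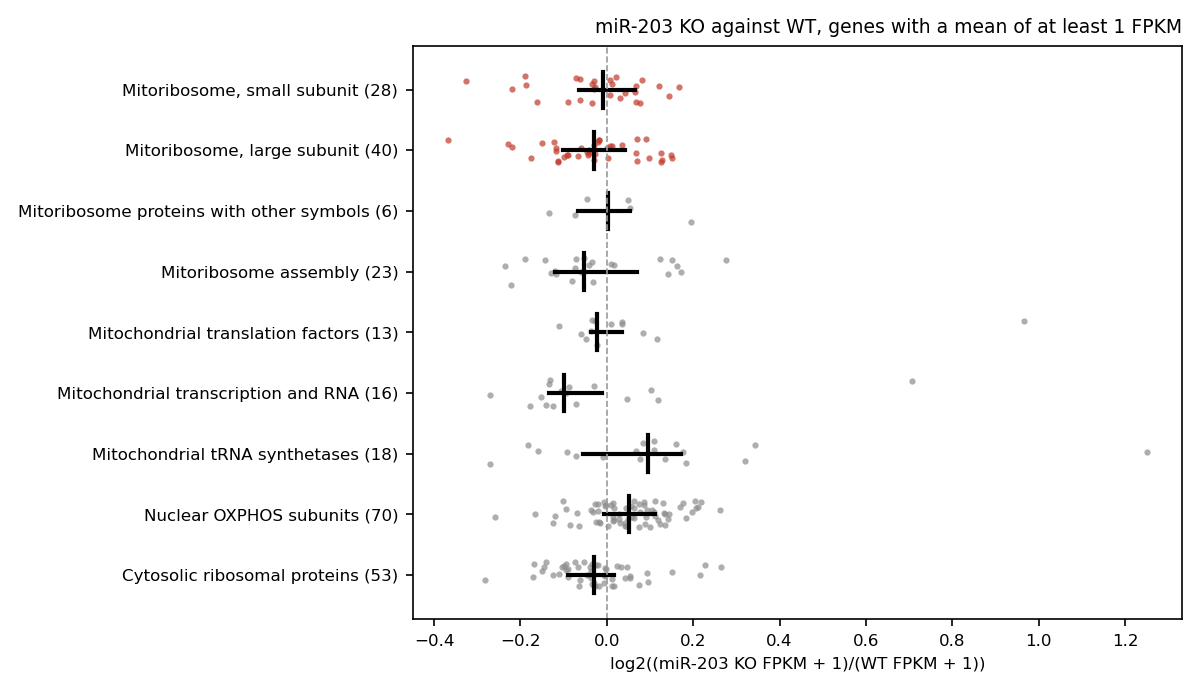
Log2 ratio of miR-203 KO over WT (pseudocount 1) for each gene with a mean of at least 1 FPKM, by group, with the number of genes in brackets. Vertical bars are medians and horizontal bars the quartiles; the small and large mitoribosomal subunits have medians of -0.01 and -0.03, and all their genes lie between -0.37 and 0.17.

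The lowest unadjusted p belonged to Mrps6, a small-subunit protein of bacterial descent (rn6 chromosome 11, 32211059 to 32264092). Mrps6 had 42.6 FPKM in miR-203 KO and 53.7 FPKM in WT, a log2 ratio of -0.33. The authors' deposited table gave p = 0.0322 and q = 0.740 for it. Mrpl39, a mitochondria-specific large-subunit protein related to threonyl-tRNA synthetase, lies on the same chromosome (24181597 to 24190945). It had 30.0 FPKM in miR-203 KO and 39.0 FPKM in WT, a log2 ratio of -0.37, with p = 0.0335 and q = 0.751 in the authors' deposited table. Mrpl17, whose bacterial homologue lies near the tunnel exit, is on chromosome 1 (170649860 to 170653944). It had 37.4 FPKM in miR-203 KO and 44.0 FPKM in WT, a log2 ratio of -0.23, with p = 0.0364 and q = 0.766 in the authors' deposited table. None of these 3 passed the q threshold. Mrpl17 is also among the 5 genes whose NRF1 core is shown above. Their median log2 ratio was -0.02, against -0.03 for the 50 genes without this core, and a link was not tested.

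The next largest decreases had no p under 0.05. Mrps2, of bacterial descent, had 39.3 FPKM in miR-203 KO and 45.9 FPKM in WT. Mrpl57, a small mitochondria-specific protein, had 19.9 FPKM in miR-203 KO and 23.3 FPKM in WT. Mrps10, part of the head of the small subunit, had 13.9 FPKM in miR-203 KO and 15.97 FPKM in WT. These 3 and Mrps25 and Mrpl52 had log2 ratios between -0.22 and -0.18. Mrps25 had 6.39 FPKM in miR-203 KO and 7.42 FPKM in WT. Mrpl52, another protein of the central protuberance, had 19.8 FPKM in miR-203 KO and 22.5 FPKM in WT.

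The largest increases were smaller than the largest decreases. Mrps14, in the head of the small subunit, had 32.0 FPKM in miR-203 KO and 28.4 FPKM in WT, a log2 ratio of 0.17. Mrpl37, mitochondria-specific and related in sequence to Mrps30, had 38.1 FPKM in miR-203 KO and 34.2 FPKM in WT, a log2 ratio of 0.15. Mrpl45 had the same ratio at the levels given above. Mrps12, Mrpl48, Mrpl33, Mrpl54 and Mrps11 followed with ratios between 0.12 and 0.14. Mrpl48 had 24.6 FPKM in miR-203 KO and 22.4 FPKM in WT. Mrpl54 had 50.01 FPKM in miR-203 KO and 45.8 FPKM in WT. Mrps11 had 37.1 FPKM in miR-203 KO and 34.0 FPKM in WT. None of these 8 had a p under 0.05 in the authors' deposited table.

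**Figure D4:**
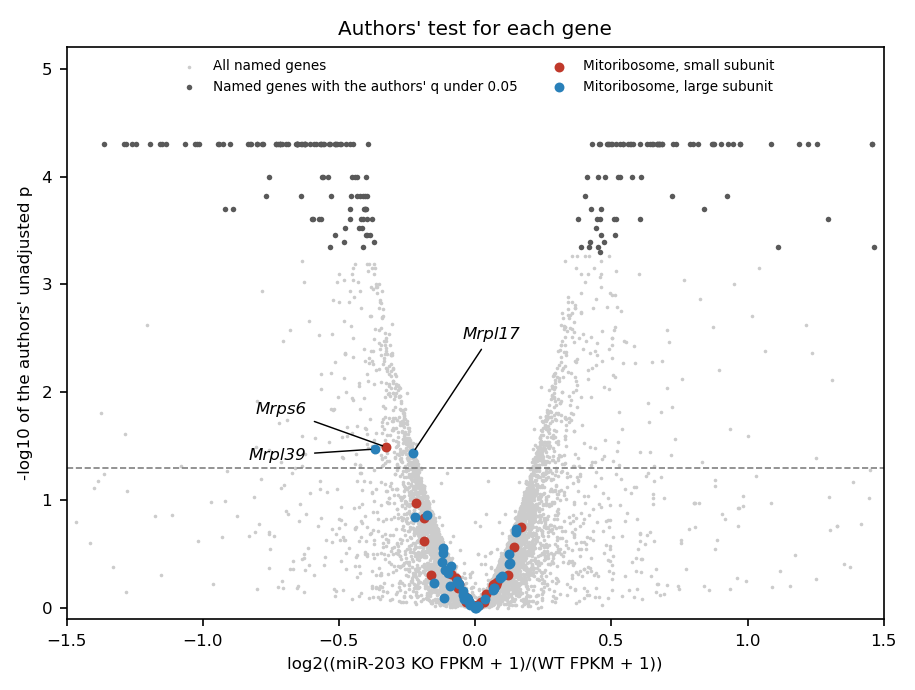
The authors' unadjusted p on a -log10 scale against the log2 ratio of miR-203 KO over WT, for named genes averaging 1 FPKM or more, with ratios within 1.5. Grey points are all named genes, dark points those with the authors' q under 0.05, red and blue points the small and large mitoribosomal subunits; the dashed line is p = 0.05, above which lie Mrps6, Mrpl39 and Mrpl17.

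None of the genes with a particular place in the family had a p under 0.05 in the authors' deposited table. The Mrps18 paralogs kept their order. Mrps18b had 49.7 FPKM in miR-203 KO and 49.4 FPKM in WT, Mrps18a 23.5 and 23.1 FPKM, and Mrps18c 19.4 and 19.2 FPKM in the same order. Mrps30 had 26.4 FPKM in miR-203 KO and 27.02 FPKM in WT. Mrps36, the dehydrogenase subunit, had 37.7 FPKM in miR-203 KO and 36.0 FPKM in WT. Mrpl12, which forms the stalk that recruits translation factors, had 53.8 FPKM in miR-203 KO and 58.5 FPKM in WT, a log2 ratio of -0.12.

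The number of rows behind a symbol and the sharing of loci limit single values. Several rows were listed for 14 of the 69 genes, with 29 rows beside the ones used. Of these 29, 18 were lower and 11 higher in miR-203 KO, and 0 had p under 0.05 in the authors' deposited table, against the 6.00% above. All 9 rows of Mrps6 list the same span and all 9 were lower in miR-203 KO, with log2 ratios between -0.77 and -0.10. All 3 rows of Mrpl39 were lower. One of these, a locus of 484 bases, had 153 FPKM in miR-203 KO and 193 FPKM in WT, above the row used. Mrpl47 and Mrps22 were also lower in all of their rows, whereas Mrpl54, Mrps21 and Mrps27 were higher in all of theirs. The rows of Mrpl10, Mrpl14, Mrpl32, Mrpl55, Mrps9, Mrps25 and Mrps31 were mixed in direction. Rows of a symbol come from the same libraries and are no replicates. RefSeq places the transporter gene Slc5a3 inside Mrps6, and no row was found under that symbol, so its part in the values of Mrps6 was not tested.

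**Figure D5:**
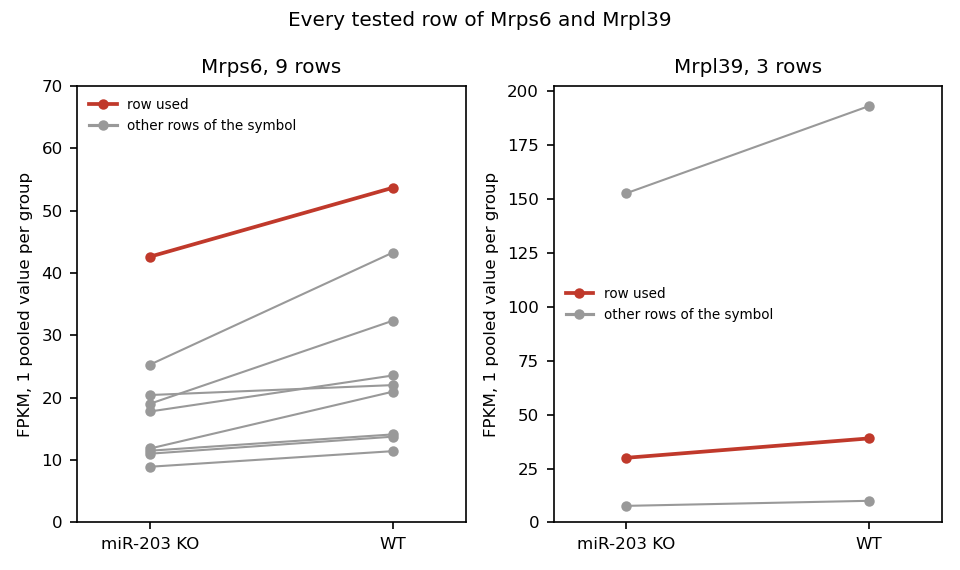
FPKM of every tested row listed under Mrps6 (left) and Mrpl39 (right), miR-203 KO and WT joined by a line. The row used is in red, at 42.6 and 53.7 FPKM for Mrps6 and 30.0 and 39.0 FPKM for Mrpl39, and each of the 9 and 3 rows is lower in miR-203 KO.

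The listed locus was shared with another gene for 16 of the 69. Mrps11 and Mrpl46 share theirs with each other, and RefSeq places them 14 bases apart on GRCr8. Mrpl46 had 23.7 FPKM in miR-203 KO and 22.6 FPKM in WT, so both members of this pair were slightly higher in miR-203 KO. Mrps12 shares its locus with Sars2, the mitochondrial seryl-tRNA synthetase gene, 91 bases away. Sars2 had 16.4 FPKM in miR-203 KO and 15.4 FPKM in WT, far below Mrps12. Mrps16 is in a row with Dnajc9 (41.6 FPKM in miR-203 KO, 43.8 FPKM in WT) and Mrpl20 in a row with Aurkaip1 (40.1 FPKM in miR-203 KO, 41.4 FPKM in WT), so the values of those genes cannot be told apart. The other 11 were Mrpl10, Mrpl13, Mrpl19, Mrpl21, Mrpl33, Mrpl47, Mrpl49, Mrpl51, Mrps7, Mrps18a and Mrps25, with log2 ratios between -0.19 and 0.13. For 10 further protein-coding RefSeq symbols of the family, among them Mrpl18, Mrpl30, Mrpl36, Mrpl53 and Mrps34, no tested row was found under the symbol, and apart from Mrpl58, which is listed under an older name, they were not analysed here.

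Genes that work with the mitochondrial ribosome were likewise uncalled. Of mitoribosomal proteins with other symbols 6 of 7 had a tested row, and 3 were higher and 3 lower. Dap3, a GTP-binding small-subunit protein, had 52.8 FPKM in miR-203 KO and 50.9 FPKM in WT. The peptidyl-tRNA hydrolase of the large subunit, Mrpl58 in RefSeq and listed as Ict1, had 22.5 FPKM in miR-203 KO and 23.7 FPKM in WT. Assembly factors (23 genes) had 8 higher and 15 lower with a median log2 ratio of -0.05. Translation factors (13 genes) had 6 higher and 7 lower with a median of -0.02. Tufm, the mitochondrial elongation factor Tu, had 12.4 FPKM in miR-203 KO and 12.7 FPKM in WT.

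Genes for mitochondrial transcription and RNA handling (16) had 4 higher and 12 lower with a median log2 ratio of -0.10. Tfam, which packages and transcribes mitochondrial DNA, had 19.9 FPKM in miR-203 KO and 21.9 FPKM in WT. The polymerase gene Polrmt had 5.40 FPKM in miR-203 KO and 5.197 FPKM in WT, and Lrpprc, which stabilises mitochondrial mRNA, had 63.9 and 68.8 FPKM. The mitochondrial tRNA synthetases (18) had 12 higher and 6 lower with a median of 0.10. Nars2, for asparagine, had 11.6 FPKM in miR-203 KO and 9.12 FPKM in WT, with p = 0.0457 and q = 0.814 in the authors' deposited table. It was the only synthetase at p under 0.05, 5.26% of 19 with a tested row, against 9.20% of named symbols. For comparison, nuclear oxidative phosphorylation subunits had 50 of 70 genes higher with a median of 0.05, and cytosolic ribosomal proteins 16 of 53 with a median of -0.03. Each of these lists held 1 gene at p under 0.05. That is 1.35% of 74 oxidative phosphorylation subunits and 1.82% of 55 cytosolic ribosomal proteins with a tested row, against 9.20% of named symbols. Atp5e, a subunit of ATP synthase, had 79.2 FPKM in miR-203 KO and 65.9 FPKM in WT, with p = 0.0185 and q = 0.573 in the authors' deposited table. Rps29, a cytosolic small-subunit protein, had 84.6 FPKM in miR-203 KO and 70.2 FPKM in WT, with p = 0.0147 and q = 0.508 in the authors' deposited table. None of these mitochondrial and ribosomal lists held a gene at q under 0.05 in the authors' deposited table, and no list was tested as a whole.

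Of the factors named for the promoter motifs, Nrf1 had 20.004 FPKM in miR-203 KO and 21.9 FPKM in WT. Gabpa, the DNA-binding part of GABP, had 9.81 FPKM in miR-203 KO and 11.2 FPKM in WT, and Yy1 had 12.4 and 12.7 FPKM. Ppargc1b, a coactivator of nuclear genes for mitochondrial proteins, had 2.35 FPKM in miR-203 KO and 1.88 FPKM in WT, with p = 0.0221 and q = 0.624 in the authors' deposited table. Ppargc1b was the only gene at p under 0.05 in a wider list of factors for nuclear mitochondrial genes, 12.5% of 8 with a tested row. The share of named symbols was 9.20%. That list also holds Myc, Pprc1 and Esrra, the last in a row with Prdx5. Of its 7 genes with a mean of at least 1 FPKM, 1 was higher and 6 were lower, and 0 were called at q under 0.05. The median log2 ratio was 0.01 for the 11 genes with the NRF1 core with 1 free base and -0.03 for the 44 without it. It was 0.01 for the 17 genes with the ETS core and -0.03 for the 38 without. For the YY1 core it was 0.01 in 8 genes with and -0.03 in 47 genes without.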

How the data were processed

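Per the submitters' processing notes, reads were handled with TopHat (listed as 0.9), then Cufflinks (2.2.1) and Cuffdiff (2.2.1.3) on build rn6. Annotation and options are not stated in the sources used, and depth is unknown. Per the file headers, the deposited table holds 1 FPKM per gene row and group, a log2 fold change, a test score (not used), a p-value and a q-value; the authors computed all of them. Of 26751 rows, 26459 were tested by the authors. Recomputed Benjamini-Hochberg values equalled their q-values to within 5.12e-07.

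No test was run here, since the design had foreseen one only for values per sample. Genes were called at the authors' q under 0.05. The longest locus was used per symbol, ties going to the highest mean FPKM. Summaries used a pseudocount of 1, which understates changes of low genes, and genes averaging 1 FPKM or more. FPKM is unstable for short loci. Cuffdiff shares reads between overlapping transcripts.

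Named genes were members with p under 0.05, the 8 largest increases and decreases, and the 8 highest and 8 lowest. Members with several rows or in a row with another gene were added, as were Mrps18a, Mrps18b, Mrps18c, Mrps30, Mrps36, Mrpl12 and Mrpl58. Further members were named only for a shared locus or a promoter match. They are not among the 44 named members whose ratios were recomputed below. From the other lists the named genes were those with p under 0.05 (at most 4 a list) and Tufm, Tfam, Polrmt, Lrpprc and Dap3. Csf1r and the other markers follow the marker lists. Sars2, Nrf1, Gabpa, Yy1 and the genes named in the closing section were chosen after their values were seen. Members and lists were chosen with earlier results of these data known. Sequences are from RefSeq (GRCr8), matched by symbol; positions of deposited rows are rn6. Python 3.11.15, pandas 2.3.3, NumPy 2.4.6 and Matplotlib 3.10.9 were used.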

Additional observations from a re-analysis of the deposited data

How the results depend on the processing

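Pseudocounts of 0.1 and 5, another filter on low values, another row per symbol, rows with several genes left out, Mrps30 and Mrps18a moved to the large subunit, Mrps36 left out, the authors' fold, centring on all rows and leaving out chromosome 3 beyond 120 Mb were tried. Ties to the first row and leaving out members that share a locus were added after seeing the data. Over these 14 alternatives the median log2 ratio lay between -0.033 and -0.022 for all members and between -0.034 and -0.024 for the large subunit. For the small subunit it lay between -0.028 and 0.0082, above 0 only when rows with several genes were left out. The small minus large difference stayed between 0.0015 and 0.037. No member was called at q under 0.1, with q recomputed over rows of at least 1 FPKM or over all rows of a symbol, while 3 members had p under 0.05 unadjusted in the authors' deposited table. Among 44 named members the log2 ratio moved by 0.1 or more only for Mrpl1, to 0.54 with a pseudocount of 0.1 and 0.07 with 5. No locus was under 300 bases. No paired analysis was possible because each group came as 1 pooled value; the replicate block, leaving out replicates and limma were therefore not run. Depth per sample is unknown.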

Other observations

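The neighbours of Mrpl39 and Mrps6 on rn6 chromosome 11 differed in direction. Of 4 named genes within 500000 bases of Mrpl39 at 5 FPKM or more, 3 were lower in miR-203 KO. Among them App, the amyloid precursor protein gene, had 193 FPKM in miR-203 KO and 252 FPKM in WT, with p = 0.00105 and q = 0.0844 in the authors' deposited table. Atp5j, a subunit of ATP synthase, had 164 FPKM in miR-203 KO and 196 FPKM in WT. Of 9 such genes around Mrps6, 4 were lower and 5 higher. Rcan1, an inhibitor of calcineurin, had 12.8 FPKM in miR-203 KO and 9.56 FPKM in WT, with p = 0.00315 and q = 0.190 in the authors' deposited table.

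Of the chromosomes with at least 3 mitochondrial ribosomal protein genes, 3 had all of them lower in miR-203 KO. These were chromosome 4 (6 genes, median log2 ratio -0.07), chromosome 11 (3 genes, -0.33) and chromosome 15 (3 genes, -0.18). On chromosome 10, 8 of 10 were lower (median -0.05). On chromosome 9, 1 of 6 was lower (median 0.03), and on chromosome 7 none of 3 (median 0.07). These directions were noticed among 18 chromosomes, with 39 of all 69 genes lower, and were not tested. The share of all rows lower on the same chromosomes was not computed, so the counts have no baseline.

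Some genes of the other lists differed widely without a call. Mrrf, the mitochondrial ribosome recycling factor, had 164 FPKM in miR-203 KO and 83.4 FPKM in WT, with p = 0.117 and q = 0.970 in the authors' deposited table. Cars2, the mitochondrial cysteinyl-tRNA synthetase, had 29.8 FPKM in miR-203 KO and 11.9 FPKM in WT, with p = 0.538 and q = 0.997 in the authors' deposited table.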
